A study of Mus musculus with 4 samples.

Results

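The laminins, nidogens and perlecan of the follicular basement membrane were taken as 10 genes, listed by name with earlier results of these data known and not picked by a measured threshold, out of 55385 genes in the count table. They were 4 laminin alpha chains (Lama1, Lama2, Lama4 and Lama5), 2 beta chains (Lamb1 and Lamb2), 1 gamma chain (Lamc1), both nidogens (Nid1 and Nid2) and perlecan (Hspg2). Bulk RNA sequencing had been done on granulosa cells (GCs), the somatic cells around the oocyte, from preantral follicles of female Kunming mice 12 to 14 days old, an outbred stock with no engineered allele. Follicles were dissected mechanically, cultured singly in medium with FSH for 6 days, and grown with neurotrophin-4 (NT4 group, 2 libraries) or without it (Control group, 2 libraries). By the study's methods the GCs were those left once the oocyte had been freed, and the 2 samples of a group came from independent experiments. The labels of these samples give no NT-4 dose (the study chose one by a dose test for its later work), and the number of follicles and mice behind each library is not given in the sources used here.

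Basement membranes are thin sheets of matrix on which epithelia rest. Laminins are secreted as trimers of an alpha, a beta and a gamma chain, and they polymerise at the cell surface, where integrins and dystroglycan bind them. Nidogens and the heparan sulfate proteoglycan perlecan link the laminin network to the network of type IV collagen. In the ovary this sheet surrounds the granulosa layer, keeps it apart from the theca and its vessels, and is remodelled as the follicle grows.

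RefSeq promoter windows in the GRCm38.p6 build were held for 6 of the 10 genes (Lama2, Lama5, Lamb1, Lamb2, Nid1 and Hspg2). They were read as 250 bases before the annotated start, and the stretch up to the first exon base of the gene in the GENCODE M21 annotation is shown. The beta chains are printed because the ratio between them did not overlap between the groups, and Lama2, Lama5 and Nid1 as examples of the 6 genes that were highest in NT4 replicate 1. Capitals mark a GC box (GGGCGG) or a CCAAT box (CCAAT) on either strand. No TATA box, searched as TATAAA on both strands, was found in the 6 windows of 250 bases.
Lamb1: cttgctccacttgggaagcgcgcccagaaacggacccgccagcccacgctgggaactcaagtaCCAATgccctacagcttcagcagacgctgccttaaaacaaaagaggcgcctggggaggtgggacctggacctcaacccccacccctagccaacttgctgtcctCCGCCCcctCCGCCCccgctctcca
Lamb2: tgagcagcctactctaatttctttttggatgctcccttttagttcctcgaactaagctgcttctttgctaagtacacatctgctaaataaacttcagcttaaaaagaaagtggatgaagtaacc
Lama2: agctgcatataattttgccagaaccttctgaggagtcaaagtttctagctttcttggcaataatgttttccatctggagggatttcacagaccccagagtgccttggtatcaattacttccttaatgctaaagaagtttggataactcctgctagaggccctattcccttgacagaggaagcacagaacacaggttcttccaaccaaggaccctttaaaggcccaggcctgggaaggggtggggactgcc
Lama5: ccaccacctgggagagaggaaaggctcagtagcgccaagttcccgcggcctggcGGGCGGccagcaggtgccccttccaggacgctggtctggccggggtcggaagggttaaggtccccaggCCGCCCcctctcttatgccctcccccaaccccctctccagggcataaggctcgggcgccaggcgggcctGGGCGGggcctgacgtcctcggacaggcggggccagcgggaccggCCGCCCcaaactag
Nid1: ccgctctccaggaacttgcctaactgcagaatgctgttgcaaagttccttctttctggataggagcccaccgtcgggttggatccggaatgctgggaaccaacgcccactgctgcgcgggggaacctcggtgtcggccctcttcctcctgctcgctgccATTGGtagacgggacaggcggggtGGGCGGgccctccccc
The stretches run 5′ to 3′ and lie at chr12:31265043-31265233 on the plus strand (Lamb1), chr9:108479612-108479735 on the plus strand (Lamb2), chr10:27616943-27617192 on the minus strand (Lama2), chr2:180225860-180226109 on the minus strand (Lama5) and chr13:13437352-13437550 on the plus strand (Nid1). The Lama2 window lies inside the gene as GENCODE draws it, outside its exons.

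The beta chains differed in these letters. The full Lamb1 window had a GC content of 62.0%, with 14 CG dinucleotides, 2 GC boxes and 1 CCAAT box. The Lamb2 window had a GC content of 43.6%, with 3 CG dinucleotides and none of the searched motifs. The windows are unlike in place: of 250 bases, 191 lay before the first GENCODE exon base for Lamb1 and 124 for Lamb2. Of the 6 windows, those of Lama5, Lamb1, Nid1 and Hspg2 were above the median GC content of all windows and held at least 1 GC box. Those of Lama2 and Lamb2 were below that median and held none. Lama2 had a GC content of 47.2%, with no CG dinucleotide and no searched motif, Lama5 had 72.4% with 19 CG dinucleotides and 4 GC boxes, and Nid1 had 64.4% with 16 CG dinucleotides, 1 GC box and 1 CCAAT box. Hspg2 had 70.0%, with 20 CG dinucleotides and 5 GC boxes. Over all 32851 promoter windows of that length, 32.7% held a GC box, 33.8% a CCAAT box and 12.4% a TATA box, and the median GC content was 52.4% with a median of 6 CG dinucleotides. A match is a description of the letters, not a site that was measured here.

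The libraries held 49520092 to 78704020 counts, an estimated 12380023 to 19676005 read pairs at about 4 counts a pair. The 10 genes took 0.169% and 0.17% of the counts in the Control libraries and 0.183% and 0.146% in the NT4 libraries. Each of the 10 passed the filter on low counts, and the thinnest of them, Lama5, rested on an estimated 240 to 368 pairs a library. All 11 granulosa markers (such as Foxl2, Fshr and Amh) were at 10 CPM (counts scaled by library size) or more in every library, and their summed CPM was 12245 and 14373 in the Control libraries and 11020 and 15703 in the NT4 libraries. Genes listed as markers of other cells were also detected, and whether they came from such cells was not tested. The 13 theca and stroma markers summed to 1542 and 1524 CPM in the Control libraries and to 2193 and 1793 CPM in the NT4 libraries. Of 9 endothelium markers, 5 were under 1 CPM in all libraries, and the list summed to 20.7 to 30.1 CPM, mostly from Cdh5. Of the 9, 7 had a log2 fold change above 0 and 2 below, with a median of 0.19, and 1 (Tek) had an unadjusted p under 0.05 and met the study's criterion of a fold above 2. At low depth, Tek was at 0.159 and 0.19 CPM in Control and 0.946 and 0.441 in NT4, and Kdr at 1.10 and 0.597 in Control and 0.497 and 0 in NT4. Tek rested on an estimated 2 and 4 read pairs in Control, the first of them under the floor of 3 pairs. The 7 pericyte markers summed to 48.1 and 43.4 CPM in the Control libraries and to 61.5 and 55.6 in the NT4 libraries, the 10 oocyte markers to 73.0 to 105 CPM and the 9 macrophage markers to 1.49 to 3.75 CPM. The 9 surface epithelium markers summed to 45.0 to 68.2 CPM, mostly from Krt8, Krt18 and Wt1. Of these 9, 6 were under 1 CPM in all libraries, with Krt19 and Upk1b at 0 among them, and 1 was at 10 CPM or more in all. In bulk RNA, fewer cells of a type and less RNA per cell cannot be told apart.

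The levels of the genes were compared first, per kilobase of exon, since the transcripts differ in length. Lama1, an alpha chain of embryonic and early epithelial basement membranes, was the highest on this length, at a mean of 41.8 CPM per kilobase over the 4 libraries, with a range of 34.6 to 45.3. Lamb1 at 26.4, Lamb2 at 25.5, Lamc1 at 25.1 and Hspg2 at 25.0 CPM per kilobase followed. These neighbours were not separated: Lamb1 lay above Lamb2 in 2 of 4 libraries, Lamb2 above Lamc1 in 1, and Lamc1 above Hspg2 in 2. Nid2 followed at a mean of 15.7 CPM per kilobase and Nid1 at 12.6, and Nid2 was the higher of the nidogens in 4 of 4 libraries on this length. The other alpha chains were far lower, with Lama4 at a mean of 3.68, Lama2 at 2.97 and Lama5 at 1.63 CPM per kilobase. Lama4 lay above Lama2 in 3 of 4 libraries, and Lama2 above Lama5 in 4 of 4. Parts of this order depended on the length, by a comparison chosen after seeing the data. Per kilobase of the longest transcript Lamb1 came to a mean of 45.3 CPM and Lama1 to 42.5, with Lama1 the higher in 1 of 4 libraries, and per kilobase of coding length they came to 47.6 and 43.8, with Lama1 again higher in 1. By coding length Nid1, at 23.5 CPM per kilobase, exceeded Nid2, at 19.3, in all 4 libraries, while by the longest transcript Nid2 was the higher in 3. Lama4, Lama2 and Lama5 were the lowest, in that order of means, by every length. By exons, Lama1 stood at the 93rd percentile of the tested genes and Lama5 at percentile 39.2.

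**Figure D1:**
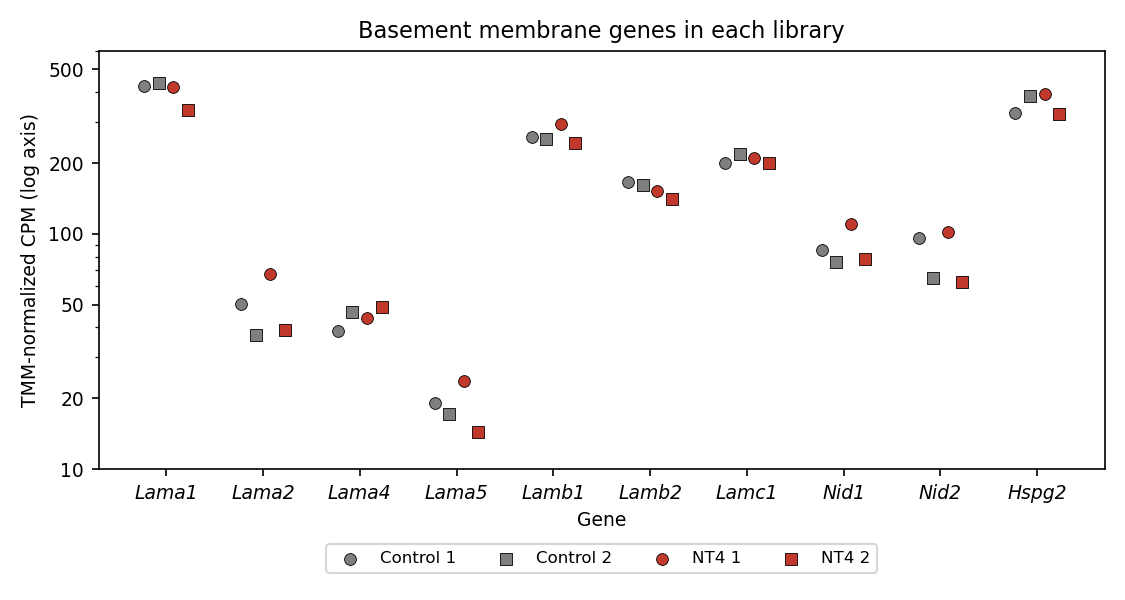
TMM-normalized CPM (vertical log axis) of the 10 genes in each library. Grey points are Control, red points NT4, circles replicate 1 and squares replicate 2. Each point is 1 library, and the groups overlap for 8 of the 10 genes.

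Comparing NT4 with Control asked whether transcripts of the basement membrane differ between GCs of follicles grown with and without NT-4. No gene of the 10 passed the test, and for 8 of them the groups overlapped. In the quasi-likelihood fit of edgeR, 0 of 10 had an adjusted p under 0.05, against 0% of the 19259 genes tested. At an unadjusted p under 0.05 the count was also 0 of 10, against 1.99% of all genes. By the study's criterion of a fold change above 2 or under 0.5 with that p, it was 0 of 10, against 1.08%. DESeq2's Wald test, limma voom and edgeR's exact test called none of the 10 either, and none of the 10 had an unadjusted p under 0.05 by these tools, against 1.94%, 1.95% and 2.31% of all genes in that order. Over all genes these tools called 62, 0 and 59. Fitted values were above 0 for 7 genes and below 0 for 3, with a median log2 fold change of 0.05 beside 0.0045 over all genes tested. The 3601 tested genes within 1.5 times the median exon length of the 10 had a median of -0.0351. Both NT4 libraries lay below both Control libraries for 2 genes (Lama1 and Lamb2), against a share of 12.7% of all genes, and above both for none, against 13.4%. Among the 3601 genes of similar length, 535 lay below in this way and 329 above. Without NT4 replicate 1 the median of the 10 genes was -0.16. The log2 fold change then turned to -0.17 for Lama2, -0.34 for Lama5, -0.08 for Lamb1, -0.05 for Nid1, -0.37 for Nid2 and -0.14 for Hspg2. The spread came from only 2 libraries a group, with information shared across genes, so a miss does not show that the levels were alike. The 95% intervals still bound the differences: over the 10 genes they reached from a log2 fold change of -0.72 (Nid2) to 1.05 (Lama2).

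**Figure D2:**
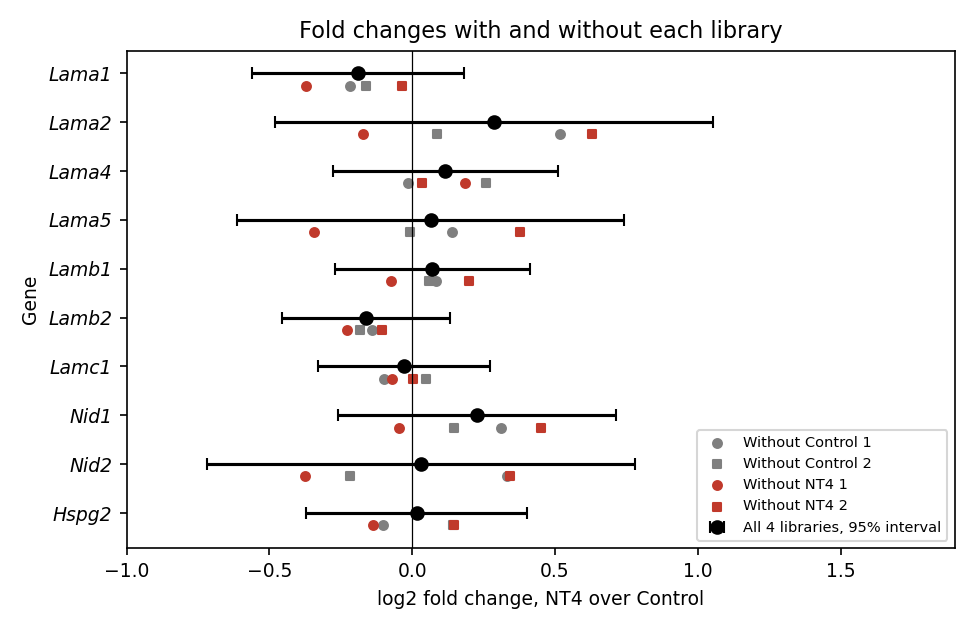
Log2 fold change of NT4 over Control (horizontal axis) for the 10 genes. Black points with bars are the fit to all 4 libraries with the 95% interval, and small points leave out 1 library each. All black bars cross 0, and the points without NT4 1 are below 0 for every gene but Lama4.

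Among the alpha chains, Lama1 (GRCm38 chr17:67697259-67822647, plus strand) stood at 424 and 439 CPM in the Control libraries, replicates 1 and 2 in that order here and below, and at 422 and 335 CPM in the NT4 libraries. Both NT4 libraries were below both Control libraries, NT4 1 by a small margin and NT4 2 by a larger one. The log2 fold change was -0.19 (SE 0.15, 95% interval -0.56 to 0.18; edgeR adjusted p = 0.9999), so the fold could lie from 0.679 to 1.13. Without NT4 replicate 2 it was -0.0342 and without NT4 replicate 1 -0.37. Lama2 (chr10:26980036-27619758, minus strand), whose loss causes a congenital muscular dystrophy, was at 50.4 and 37.1 CPM in the Control libraries and at 67.8 and 39.0 in the NT4 libraries. The groups overlapped, with NT4 1 highest and Control 2 lowest, and the log2 fold change was 0.29 (SE 0.30, 95% interval -0.48 to 1.05; edgeR adjusted p = 0.9999). Of the 10 genes it had the widest spread, 1.83-fold from the lowest to the highest library.

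Lama4 (chr10:38965515-39110188, plus strand), an alpha chain of vessel walls, was at 38.8 and 46.5 CPM in Control and at 43.7 and 48.8 in NT4. It was the only one of the 10 genes for which both libraries numbered 1 lay below both numbered 2, an order that 24.8% of all genes showed. Its log2 fold change was 0.12 (SE 0.16). Lama5 (chr2:180176373-180225859, minus strand), a chain of many adult epithelial basement membranes, was at 19.1 and 17.2 CPM in Control and at 23.6 and 14.3 in NT4. The NT4 libraries held both its highest and its lowest value, and the log2 fold change was 0.06 (SE 0.27).

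The fitted values of the beta chains lay on opposite sides of 0, and neither passed the test. Lamb1 (chr12:31265234-31329644, plus strand), the widespread beta chain, was at 258 and 253 CPM in Control and at 293 and 244 in NT4. The groups overlapped, and its log2 fold change came to 0.07 (SE 0.14, 95% interval -0.27 to 0.41). Lamb2 (chr9:108479736-108490530, plus strand), the beta chain of the neuromuscular junction and the kidney filter, was at 167 and 161 CPM in Control and at 152 and 141 in NT4. Both NT4 libraries were below both Control libraries, and its log2 fold change came to -0.16 (SE 0.12, 95% interval -0.46 to 0.13; edgeR adjusted p = 0.9999). Per kilobase, the ratio of Lamb1 to Lamb2 was 0.95 and 0.963 in Control and 1.18 and 1.06 in NT4. It was higher in both NT4 libraries, and the exact two-sided permutation test gave p = 0.333, the smallest that 2 libraries against 2 allow. It was 1 of 9 ratios computed. The ratio of Col4a1 to Lamc1 (2.99 and 2.46 in Control, 3.88 and 3.66 in NT4) was the other one that did not overlap, and no adjusted p of the 9 could be lower than 0.333.

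Lamc1 (chr1:153218922-153332786, minus strand), the gamma chain of most laminins, varied least. It was at 199 and 219 CPM in Control and at 210 and 200.3 in NT4, so that all libraries lay within a 1.10-fold range. The log2 fold change was -0.03 (SE 0.12, 95% interval -0.33 to 0.27), and the fold could lie from 0.797 to 1.21.

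Of the linkers of the laminin network, both nidogens were higher in the library numbered 1 of each group, and perlecan was not. Nid1 (chr13:13437551-13512269, plus strand) was at 85.6 and 75.99 CPM in Control and at 110.5 and 78.6 in NT4. Its highest value was again in NT4 1, and the log2 fold change was 0.23 (SE 0.19, 95% interval -0.26 to 0.71; edgeR adjusted p = 0.9999). Nid2 (chr14:19751265-19811787, plus strand) was at 95.9 and 65.1 CPM in Control and at 102 and 62.4 in NT4. The library numbered 1 exceeded the one numbered 2 by 0.56 on the log2 scale in Control and by 0.71 in NT4, while the log2 fold change between the groups was 0.03 (SE 0.30). Nid2 shares 437 exon bases on the opposite strand with Rtraf. By the study's methods the libraries were strand-specific (a U-labelled second strand, treated with the enzyme UDG). Whether the authors' counting used strand is not stated, so part of the Nid2 counts may belong to Rtraf. The antisense genes that overlap Nid1 and Lama2 had 0 counts in every library. Perlecan, Hspg2 (chr4:137468769-137570630, plus strand), was at 326 and 384 CPM in Control and at 393 and 325 in NT4. The 2 groups spanned nearly the same range, and the log2 fold change came to 0.02 (SE 0.15, 95% interval -0.37 to 0.40).

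Spread between libraries was then described across the genes. NT4 1 held the highest value for 6 of the 10 genes (Lama2, Lama5, Lamb1, Nid1, Nid2 and Hspg2) and the lowest for none, while it held the highest value for 26.5% of all genes and the lowest for 26.2%. NT4 2 held the lowest value for 6 of the 10 (Lama1, Lama5, Lamb1, Lamb2, Nid2 and Hspg2), against 27.5% of all genes. The median deviation of the 10 genes from their own means on the log2 scale was 0.025 and 0.0042 for the Control libraries and 0.16 and -0.14 for the NT4 libraries. Both libraries numbered 1 lay above both numbered 2 for 5 genes (Lama2, Lama5, Lamb1, Nid1 and Nid2), against 24.3% of all genes. These transcripts are long, with a median of 9799 exon bases. The 3601 tested genes within 1.5 times that length deviated less, at a median of 0.04 in NT4 1 and -0.06 in NT4 2. The part that RNA quality had in this was not tested. Theca and stroma markers were high in the same library: 9 of the 13 were highest in NT4 1. They were not high in that library alone, as both NT4 libraries lay above both Control libraries for 9 of the 13, against 13.4% of all genes. All 13 had a log2 fold change above 0, with a median of 0.39. Of the 13, 5 had an unadjusted p under 0.05 (Acta2, Col3a1, Dcn, Lum and Tcf21), against 1.99% of all genes, and none passed the edgeR adjusted test. Of the pericyte markers, all 6 that were tested had a log2 fold change above 0, with a median of 0.35. Of the 11 granulosa markers, 8 (Inha, which made up most of their sum, among them) were lowest in NT4 1, and 3 (Amh, Amhr2 and Kitl) were highest there. The part of these cells in the values of the 10 genes was not tested.

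**Figure D3:**
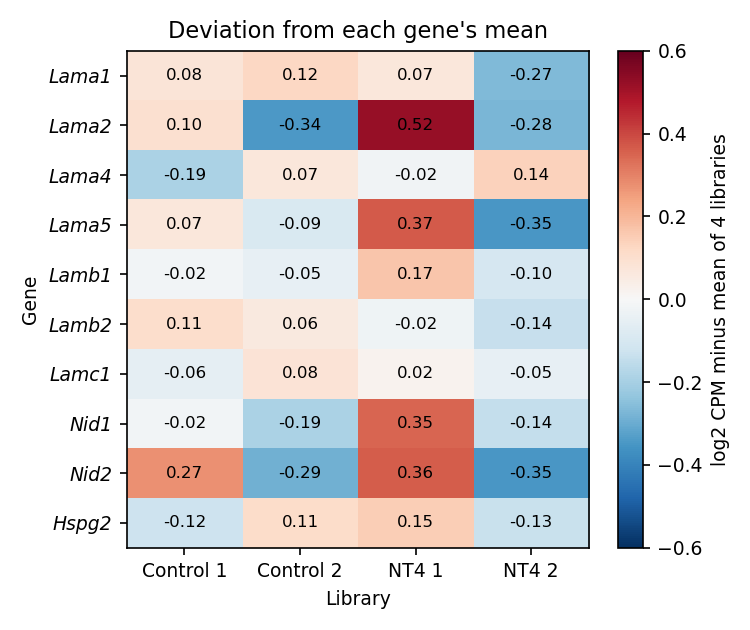
Deviation of log2 CPM from each gene's mean over the 4 libraries (colour and printed value), with genes in rows and libraries in columns. NT4 1 is above 0 for most genes, highest for Lama2 at 0.52, and NT4 2 is below 0 for every gene but Lama4.

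The make-up of each chain class was compared next, as shares of CPM per kilobase in each library, with Lama3, Lamb3 and Lamc3 included. Lama1 made up most of the alpha chain transcripts, at 83.5% and 84.8% in Control and 80.6% and 80.8% in NT4. Its share was lower in both NT4 libraries, by 3.47 percentage points between the means (84.2% ± 0.913 against 80.7% ± 0.183, SD, n = 2 each), and the exact two-sided permutation test gave p = 0.333, the smallest possible. Lama4 took 6.13% and 7.21% in Control and 6.70% and 9.44% in NT4. Lama2 took 5.88% and 4.25% in Control and 7.67% and 5.57% in NT4, and Lama5 took 2.82% to 3.83% over all libraries. For these 3 chains the groups overlapped. Lama3, a chain of the laminin under the epidermis, took 0.9% to 1.27%.

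Lamb1 and Lamb2 made up nearly all of the beta chain transcripts, so the share of Lamb1 restates the ratio of Lamb1 to Lamb2 given above. The share of Lamb1 was 48.7% and 49.0% in Control and 54.2% and 51.5% in NT4. It was higher in both NT4 libraries, by 3.99 percentage points between the means (48.8% ± 0.235 against 52.8% ± 1.88, SD, n = 2 each; exact permutation p = 0.333, the smallest possible). Which of the beta chains was the more abundant depended on the length used: with the longest transcript in place of all exons, Lamb1 took 60.1% to 65.2%. With that length Lama1 took 71.7% to 77.3% of the alpha chains and Lama4 11.0% to 16.4%. The side on which each group lay was the same for Lama1 with every length tried. For Lamb1 the lengths are no check of the side. Another length scales the ratio of Lamb1 to Lamb2 alike in every library, so the order could hardly change. Of Lamc1 and Lamc3 together, Lamc1 took 83.3% and 89.7% in Control and 77.4% and 87.8% in NT4, and the groups overlapped (exact permutation p = 0.667). Summed over a class, the alpha chains came to 42.8 to 54.1, the beta chains to 47.7 to 54.6 and Lamc1 with Lamc3 to 27.6 to 32.8 CPM per kilobase.

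**Figure D4:**
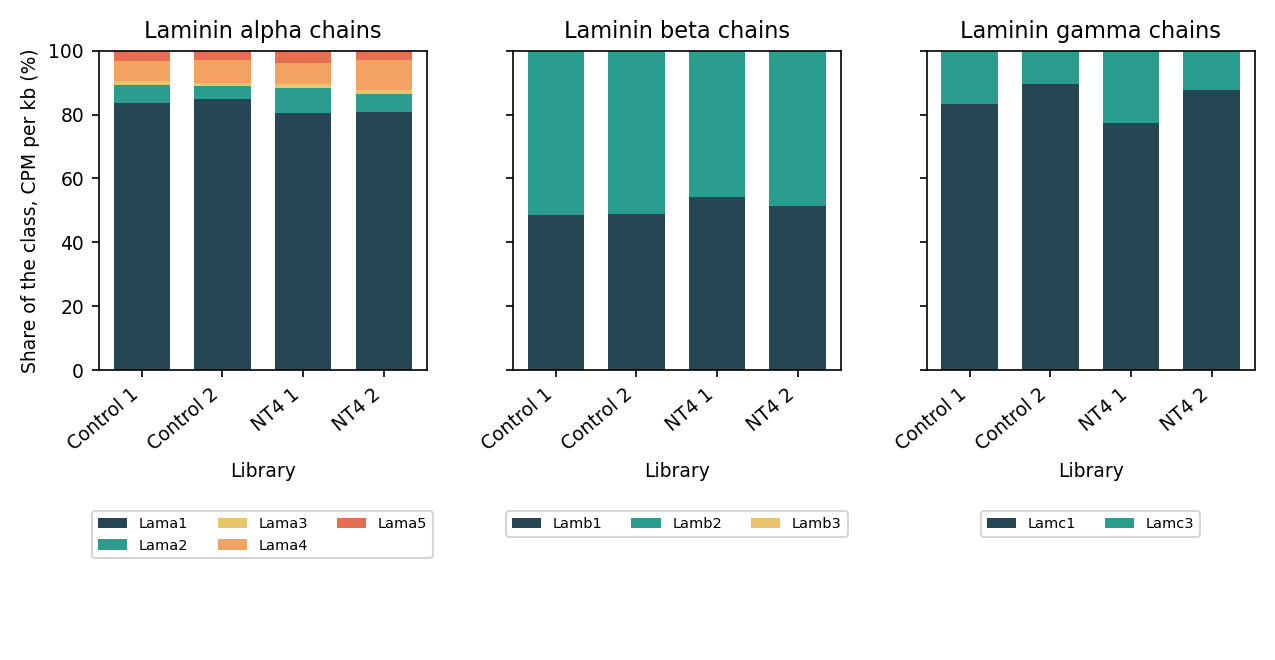
Share of each chain among the laminin alpha chains, the beta chains and the gamma chains Lamc1 and Lamc3 (percent of CPM per kilobase of exon, vertical axis) in each library. Lama1 fills 80.6% to 84.8% of the alpha chains, Lamb1 and Lamb2 split the beta chains nearly evenly, and Lamc3 varies between libraries from 10.3% to 22.6% of its pair.

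Lama3, Lamb3 and Lamc3 are laminin chains outside the 10. Lamc3, a gamma chain, was the highest of the 3, at 29.5 and 18.6 CPM in Control and at 45.3 and 20.5 in NT4. It followed the order of Lama2 and Nid1, with NT4 1 highest and Control 2 lowest, and its log2 fold change was 0.45 (SE 0.42; edgeR adjusted p = 0.9999). Lamc3 shares 382 exon bases with an antisense gene. Lama3 was at 5.17 to 7.15 CPM. Lamb3 was at 0.418 and 0.434 CPM in Control and at 0 and 0.104 in NT4. With an estimated 0 to 8 read pairs of Lamb3 a library and a floor of 3 pairs (0.156 to 0.239 CPM), both NT4 libraries were under the floor and the difference was not detectable at this depth. The floor covers counting error only. Of these 3 chains, 2 had a log2 fold change above 0 and 1 below, and none had an unadjusted p under 0.05.

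The type IV collagens form the network to which nidogens and perlecan tie the laminins, and none of the 6 passed the edgeR adjusted test. Col4a1, which with Col4a2 forms the widespread network, was at 538 and 487 CPM in Control and at 736 and 662 in NT4. Both NT4 libraries were above both Control libraries at a log2 fold change of 0.45 (SE 0.12, 95% interval 0.15 to 0.75), and by edgeR the unadjusted p was 0.0121 and the adjusted p 0.9999. Col4a2 was at 358 and 341 CPM in Control and at 510.0 and 348 in NT4, so the groups overlapped, at a log2 fold change of 0.30 (SE 0.20). Col4a3 (0.28) and Col4a4 (0.23) had log2 fold changes above 0 and Col4a5 (-0.11) one below. Without NT4 replicate 1, the value was 0.0408 for Col4a3 and 0.12 for Col4a4. Col4a6 was at 44.3 and 38.0 CPM in Control and at 33.8 and 31.4 in NT4, below Control in both NT4 libraries, at a log2 fold change of -0.34 (SE 0.15). The 6 collagens had a median log2 fold change of 0.26, beside 0.0045 over all genes tested, and 1 of 6 had an unadjusted p under 0.05, against 1.99% of all genes. The 5 theca and stroma markers with an unadjusted p under 0.05 and the summed pericyte markers were on the same side as Col4a1, and their part in its value was not tested.

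Other genes of the basement membrane were counted in lists, none of which held a gene with an adjusted p under 0.05 or, by the same edgeR fit, an unadjusted p under 0.05. Of 24 other components, 13 were above 0 and 11 below, with a median log2 fold change of 0.13. Of the 24, 7 had both NT4 libraries above Control (13.4% of all genes did) and 1 had both below (12.7%). The most abundant per kilobase were Sparc, a collagen-binding matrix protein (524 and 537 CPM in Control, 653 and 579 in NT4), Fbln1, a secreted glycoprotein (log2 fold change -0.07), and Crim1, a transmembrane protein that binds bone morphogenetic proteins (-0.06). Sparc had a log2 fold change of 0.22 (SE 0.12).

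Receptors of laminin gave values on both sides of 0, with 7 of 14 above, 7 below and a median log2 fold change of 0.01. Dag1, which encodes dystroglycan, was at 1253 and 890.3 CPM in Control and at 1011 and 805 in NT4. The groups overlapped at a log2 fold change of -0.24 (SE 0.21), and the highest value was in Control 1. Itgb1, the beta subunit of most laminin-binding integrins, had a log2 fold change of 0.08 (SE 0.16) and the syndecan Sdc1 one of -0.12 (SE 0.20). Of 13 genes that build the laminin-binding sugar chain of dystroglycan, 4 were above 0 and 9 below, with a median of -0.07. Its most abundant members were Pomgnt1 (0.15), Pomt1 (-0.07) and Large2 (0.09). Of 17 genes of matrix processing and cross-linking, 11 were above 0 and 6 below, with a median of 0.03, and the most abundant were P4hb, a subunit of the enzyme that hydroxylates collagen (-0.04), the collagen chaperone Serpinh1 (-0.10) and the secreted protease Htra1 (-0.05).

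**Figure D5:**
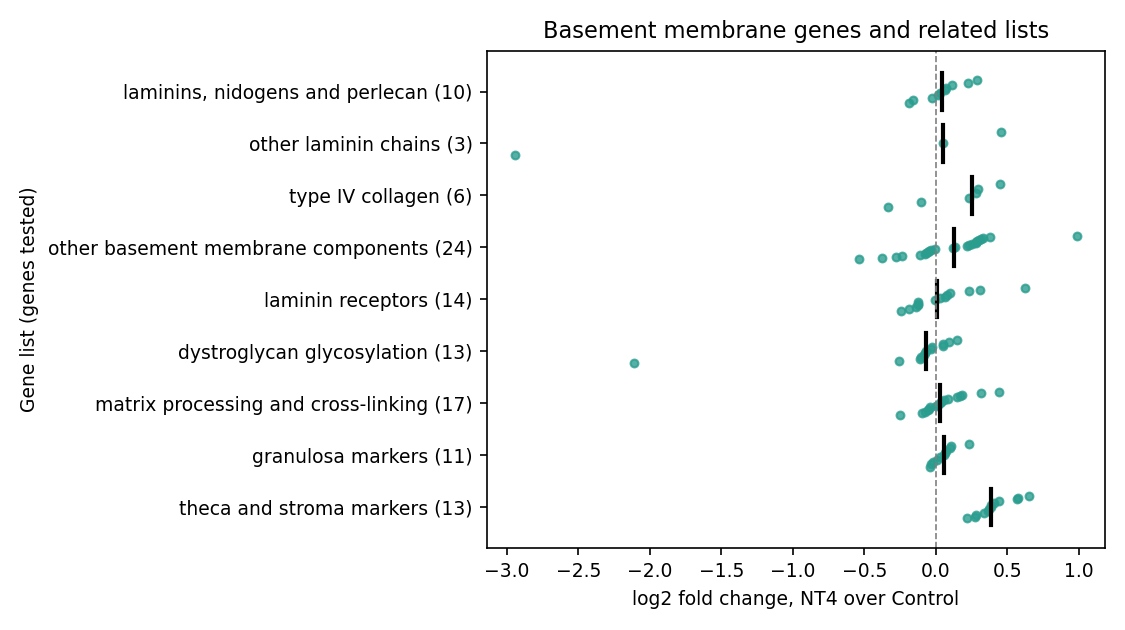
Log2 fold change of NT4 over Control (horizontal axis) for each tested gene of a list (points), with the list's median as a black bar and the median of all tested genes as a dashed line. The 10 laminin, nidogen and perlecan genes lie between -0.19 and 0.29, while the median of the theca and stroma markers is 0.39.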

How the data were processed

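RNA from GCs had been sequenced in 4 libraries. By their methods, the authors trimmed reads with Cutadapt, mapped them with HISAT2 to the Ensembl v99 mouse genome, assembled them with StringTie and estimated expression with StringTie and ballgown; the labels name mm10. The deposited values are expected counts per gene, whole numbers estimated from coverage and not normalized, at about 4 counts a read pair. The single-library files held the same values as the series table in 4 of 4 libraries. Genes were matched by Ensembl identifier to GENCODE M21 (55144 of 55385).

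Counts were tested in R 4.3.3 with edgeR 4.0.16 (quasi-likelihood, TMM, filterByExpr, group only, two-sided, Benjamini-Hochberg over 19259 genes). CPM used TMM library sizes, and levels per kilobase used the union of exons. Chain shares and ratios were compared by exact permutation, which cannot go below p = 0.333 with 2 against 2. P-values measure the spread between these samples, and in the edgeR fit each gene's spread is drawn toward a trend over all genes tested. Fold changes are NT4 over Control. The 10 genes and all lists were chosen with earlier results of these data known. Named beside the 10 genes were Lama3, Lamb3, Lamc3, Col4a1 to Col4a6, and in each other pathway list (not the marker lists) the 3 genes with the highest level per kilobase and any with an unadjusted p under 0.05. Alternatives were other scalings, filters and tests (DESeq2 1.42.0, limma 3.58.1), a replicate block, a length trend, counts divided by 4, other lengths, and leaving out each library. The procedure was also run on simulated data, but the outcome is not given here and no result rests on it. Promoter sequences are RefSeq's. A listed gene is not reported here.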

Additional observations from a re-analysis of the deposited data

How the results depend on the processing

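Under the 16 alternatives no gene of the 10 had an adjusted p under 0.05; the lowest was 0.91, for Lama1, Lama5, Lamb2 and Nid2 without NT4 replicate 1. Lama1 and Lamb2 were below 0 in all of them (Lama1 at -0.37 without NT4 replicate 1 and -0.0342 without NT4 replicate 2, Lamb2 at -0.23 and -0.11), and Hspg2 turned to -0.0026 with library totals. Other directions changed when a library was left out. The median of the 10 genes ran from -0.16 (without NT4 replicate 1) to 0.17, in fits that take the spread of a group with 1 library left from the other group. The log2 fold changes that changed sign were those of Lama2 (-0.17 to 0.63), Lama4 (-0.0134 to 0.26), Lama5 (-0.34 to 0.38), Lamb1 (-0.0756 to 0.20), Lamc1 (-0.10 to 0.047), Nid1 (-0.0471 to 0.45), Nid2 (-0.37 to 0.34), Hspg2 (-0.14 to 0.15), Lama3 (-0.16 to 0.30), Lamc3 (-0.23 to 0.92), Col4a2 (-0.0116 to 0.55), Col4a5 (-0.28 to 0.0399), Crim1 (-0.21 to 0.0625), Dag1 (-0.46 to 0.0232), Itgb1 (-0.13 to 0.25), Sdc1 (-0.37 to 0.0833), Pomgnt1 (-0.0667 to 0.33), Pomt1 (-0.19 to 0.0278) and Large2 (-0.0954 to 0.29). Other values moved without a change of sign when a library was left out. Serpinh1 ran from -0.18 to -0.0017, P4hb from -0.0726 to -0.0076 and Htra1 from -0.0877 to -0.0198. Fbln1 ran from -0.11 to -0.033 and Sparc from 0.12 to 0.30. The Lamc1 share differed by -9.12 to 1.29 percentage points. The cause was not tested. By edgeR, an unadjusted p under 0.05 was found for Lama1 without NT4 replicate 1 (4.24% of all genes there), for Lama2 and Nid1 without NT4 replicate 2 (3.63%) and for Lama2 with the replicate block and the length trend removed (3.26%). Over all genes, calls were 0 with every scaling, 10 without a filter, 59 by edgeR's exact test, 62 by DESeq2's Wald test, 12 without Control replicate 1 and 37 without Control replicate 2, and the study's criterion was met by 87 (CPM of at least 1) to 512 genes (without Control replicate 2) beside 208. With counts divided by 4 it was met by 119, without a filter by 345 and by the exact test by 312. By the study's methods the follicle cultures of all groups were run in parallel, in replicated experiments. Neither the methods nor the labels say that replicate numbers mark shared experiments, and 2 pairs cannot settle it. Deviations of same-numbered libraries correlated across genes at Pearson 0.14 and Spearman 0.26. For the 10491 more abundant genes, whose log2 CPM averaged more than 3, the values were 0.31 and 0.44. Of the 10 genes, 7 had the same sign of replicate 1 minus 2 in both groups, against 62.7% of all genes. What these values reflect was not tested. With the replicate number as a block 0 of the 10 genes passed, the median was 0.0185, the SE of Nid2 was 0.0948 in place of 0.30, and 580 of all genes had an unadjusted p under 0.05 beside 383. No member shared exons with a gene on its own strand, so that planned sum was not needed. Lama1 was above Lamb1 in 4 libraries by exons, 1 by longest transcript and 1 by coding length, and Nid2 above Nid1 in 4, 3 and 0. With 2 libraries a group, depth limits low genes such as Lamb3.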
